A study of Mus musculus with 23 samples.

Results

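Transcripts of 10 genes whose products cytotoxic T cells and natural killer (NK) cells use to kill other cells were measured in 23 MC38 tumors grown in 6 lines of host mice. They are the granzymes Gzma, Gzmb, Gzmc, Gzmd, Gzme, Gzmf and Gzmk, the pore-forming protein perforin (Prf1), the granule membrane protein Nkg7 and the death ligand Fasl. The genes were chosen by symbol, and all 10 were found among the 26869 genes of the count table. In the granule pathway, a killer cell releases perforin and granzymes onto its target, perforin lets the granzymes into the target cell, and the granzymes, which are serine proteases, cleave proteins inside it. Fasl works without granules, by binding the receptor Fas on the target cell and starting caspase activation. Granzyme B cleaves after aspartate and activates caspases, granzymes A and K are tryptases, and granzymes C, D, E and F are close relatives of granzyme B that mice carry in the same gene cluster.

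MC38 is a colon carcinoma cell line from C57BL/6 mice. Hosts were female F1 mice from crosses of C57BL/6J with the Collaborative Cross strains CC001/UncJ, CC002/UncJ, CC075/UncJ, CC036/UncJ, CC079/TauUncJ and CC080/TauUncJ, which are recombinant inbred strains descended from 8 founder strains. The mice were 8 to 12 weeks old and were injected with MC38 cells under the skin. Once tumors measured 75 to 110 mm3, each mouse was given 200 µg of the PD-1 antibody 29F.1A12 (aPD1), which blocks an inhibitory receptor of T cells, or of the isotype control antibody 2A3, and the tumor was taken 48 h later. The study's text, and not the labels, classed CC001F1, CC002F1 and CC075F1 as responder (R) lines and CC036F1, CC079F1 and CC080F1 as non-responder (NR) lines. Of CC080F1 with aPD1 there was 1 tumor and of every other line and antibody 2, so there were 6 R isotype, 6 R aPD1, 6 NR isotype and 5 NR aPD1 tumors. The whole tumor was sequenced, so fewer killer cells and less of a transcript per cell cannot be told apart, and no mouse without a tumor or without antibody was compared. The labels call the tumors biological replicates, a class holds 3 lines, and the tests of R against NR treat the tumors of a line as independent.

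Libraries held 14494014 to 71868253 expected counts, with a median of 42327589. The 6 shallow libraries had at most 18354585 counts, and 4 of them were NR. The shallow isotype libraries were the second of CC001F1, in R, and the first of CC036F1, second of CC079F1 and second of CC080F1, in NR. Cd3e, which all T cells express, ran from 3.97 to 400.4 normalized counts (counts divided by a size factor for the library), and the NK cell receptor gene Ncr1 from 26.6 to 272. Both transcripts were thus detected in every tumor, but the 2 CC079F1 isotype tumors had only 3.97 and 16.5 normalized counts of Cd3e. The value of 3.97 rests on 2 expected counts, too few to say that T cells were present. Glycam1, a gene of lymph node vessels, was seen at 3 or more counts in 3 tumors, the first replicates of CC002F1 isotype, CC079F1 aPD1 and CC080F1 aPD1. The summed normalized count of 5 skeletal muscle genes was 1000 or more in 5 tumors and highest, at 19470.0, in the first CC001F1 aPD1 tumor. Values without these tumors are given where they change a call.

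The cluster that holds most of the granzymes lies on chromosome 14 of the GRCm38 build. Gzme, Gzmd, Gzmg, Gzmn, Gzmf, Gzmc and Gzmb follow each other there on the minus strand between positions 56117626 and 56262260, a span of 144.6 kb. Gzmb takes 56258838 to 56262260, Gzmc 56231441 to 56234656, Gzmf 56205263 to 56211417, Gzmd 56129556 to 56132608 and Gzme 56117626 to 56120625. Gzma (113093825 to 113100981) and Gzmk (113171608 to 113225908) are neighbours on chromosome 13, minus strand. Prf1 is on chromosome 10 (61297833 to 61304680, plus strand), Nkg7 on chromosome 7 (43437073 to 43438249, plus strand) and Fasl on chromosome 1 (161780689 to 161788495, minus strand).

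The promoters of the cluster are shown because its genes moved together in the tumors, with Spearman correlations of 0.65 to 0.78 between Gzmb and Gzmc, Gzmd, Gzme and Gzmf, while of these 5 only Gzmb was called between the host classes in DESeq2 when no tumor was left out. Moving together was not particular to the cluster. Prf1, on chromosome 10, stood at 0.88 with Gzmb and at 0.79 to 0.87 with Gzmc to Gzmf. Each line gives the 200 bases before the start of transcription in RefSeq (GRCm38.p6), read 5′ to 3′ on the strand of the gene, for Gzmb (chr14:56262335-56262534), Gzmc (chr14:56234658-56234857), Gzmf (chr14:56211408-56211607), Gzmd (chr14:56132594-56132793), Gzme (chr14:56120626-56120825) and, outside the cluster, Nkg7 (chr7:43436938-43437137). Capitals mark matches, on either strand, to the letters TGTGGTT (RUNX), GGTGTGA (T-box), TGANTCA (AP-1) and TGACGTCA (cyclic AMP response element, CRE).
Gzmb: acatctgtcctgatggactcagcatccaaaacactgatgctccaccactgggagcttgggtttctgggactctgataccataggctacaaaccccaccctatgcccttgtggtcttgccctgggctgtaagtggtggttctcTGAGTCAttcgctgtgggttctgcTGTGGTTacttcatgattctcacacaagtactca
Gzmc: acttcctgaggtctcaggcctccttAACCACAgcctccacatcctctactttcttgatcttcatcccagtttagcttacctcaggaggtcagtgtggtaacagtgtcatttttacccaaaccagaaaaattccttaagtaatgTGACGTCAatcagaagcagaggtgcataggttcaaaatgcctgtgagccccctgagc
Gzmf: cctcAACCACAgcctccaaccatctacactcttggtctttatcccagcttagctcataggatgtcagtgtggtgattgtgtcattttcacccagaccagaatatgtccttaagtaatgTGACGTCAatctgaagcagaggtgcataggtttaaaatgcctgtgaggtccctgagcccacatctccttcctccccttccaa
Gzmd: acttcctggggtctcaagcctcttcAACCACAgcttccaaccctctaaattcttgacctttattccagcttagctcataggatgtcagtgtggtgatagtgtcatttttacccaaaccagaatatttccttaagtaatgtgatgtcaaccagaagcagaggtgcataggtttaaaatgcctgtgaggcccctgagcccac
Gzme: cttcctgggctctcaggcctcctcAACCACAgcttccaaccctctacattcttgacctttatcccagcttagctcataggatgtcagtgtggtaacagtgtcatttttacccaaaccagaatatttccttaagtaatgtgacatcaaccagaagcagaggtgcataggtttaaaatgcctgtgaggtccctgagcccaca
Nkg7: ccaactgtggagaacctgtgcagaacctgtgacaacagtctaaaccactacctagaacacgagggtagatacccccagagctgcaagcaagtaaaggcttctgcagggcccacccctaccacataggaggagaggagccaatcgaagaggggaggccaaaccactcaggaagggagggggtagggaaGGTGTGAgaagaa
The RUNX letters stood in the 300 bases around the start, 250 before and 50 after, of 6 of the 10 genes, Gzma to Gzmf, against 5.3% of 32851 RefSeq windows of that length. They lay 175, 175, 176 and 196 bases before the start in Gzmc, Gzmd, Gzme and Gzmf and, from the RefSeq start, 34 in Gzmb and 51 in Gzma. For Gzmb, Gzmk and Prf1 the RefSeq start was not that of the GENCODE transcript, so the positions given for Gzmb depend on the annotation. The CRE letters were found in Gzmc and Gzmf (1.8% of windows), the AP-1 letters in Gzmb (7.8%) and the T-box letters in Nkg7 and Gzmk (4.0%). Without gaps, the windows of Gzmd and Gzmf matched at 88.9% of bases and those of Gzmc and Gzmd at 63.9%. The matches in Gzmc to Gzmf thus stand in related sequence and do not count as separate ones. The windows of Gzmb and its 4 relatives matched at 29.8% to 33.3%. With Gzmd the best shift was 60 bases, the largest tried, and the Gzmb start depends on the annotation. These values therefore cannot tell whether the Gzmb window is related to the others. A match of letters is a description and shows no binding.

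On a scale of normalized counts per kilobase of exon, which allows levels of different genes to be compared, Gzmf had the highest median over the 23 tumors (1708), followed by Gzmc (1275), Gzmd (957.5), Gzme (439) and Gzmb (421). Nkg7 (188), Prf1 (174) and Gzma (139) formed a middle group, and Fasl (25.5) and Gzmk (9.88) were low. Neighbours in this order differed by more than their spread (mean log2 gap above 1 SD over tumors) only for Gzmd over Gzme, in 23 of 23 tumors, Gzmb over Nkg7, in 22, and Gzma over Fasl, in 23. The order within Gzmf, Gzmc and Gzmd, and among Nkg7, Prf1 and Gzma, was thus not fixed from tumor to tumor. The members also differed in how much they varied. Among the 9 members above 0 in every tumor, the highest tumor was 7.11 times the lowest for Prf1 and 67.7 times for Gzmf. Gzmk, listed at 0 in 1 tumor, had between 0 and 119 expected counts per library, so its values rest on few reads.

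Reads of the cluster genes can be hard to assign. No 100-base stretch of a Gzmb, Gzmc, Gzme or Gzmf transcript was found in another granzyme of those compared, and 2 stretches of Gzmd were found in Gzmg. With up to 3 mismatches, 44.9% of the stretches of Gzmd, 44.1% of Gzme, 17.3% of Gzmf and 5.4% of Gzmc matched another cluster gene, and 0.0% of Gzmb. The estimated counts of Gzmd and Gzme were not whole in 21.7% of tumors and those of the other 8 members were whole in all, so splitting of shared reads touched Gzmd and Gzme, whose values are less certain than their errors state.

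**Figure D1:**
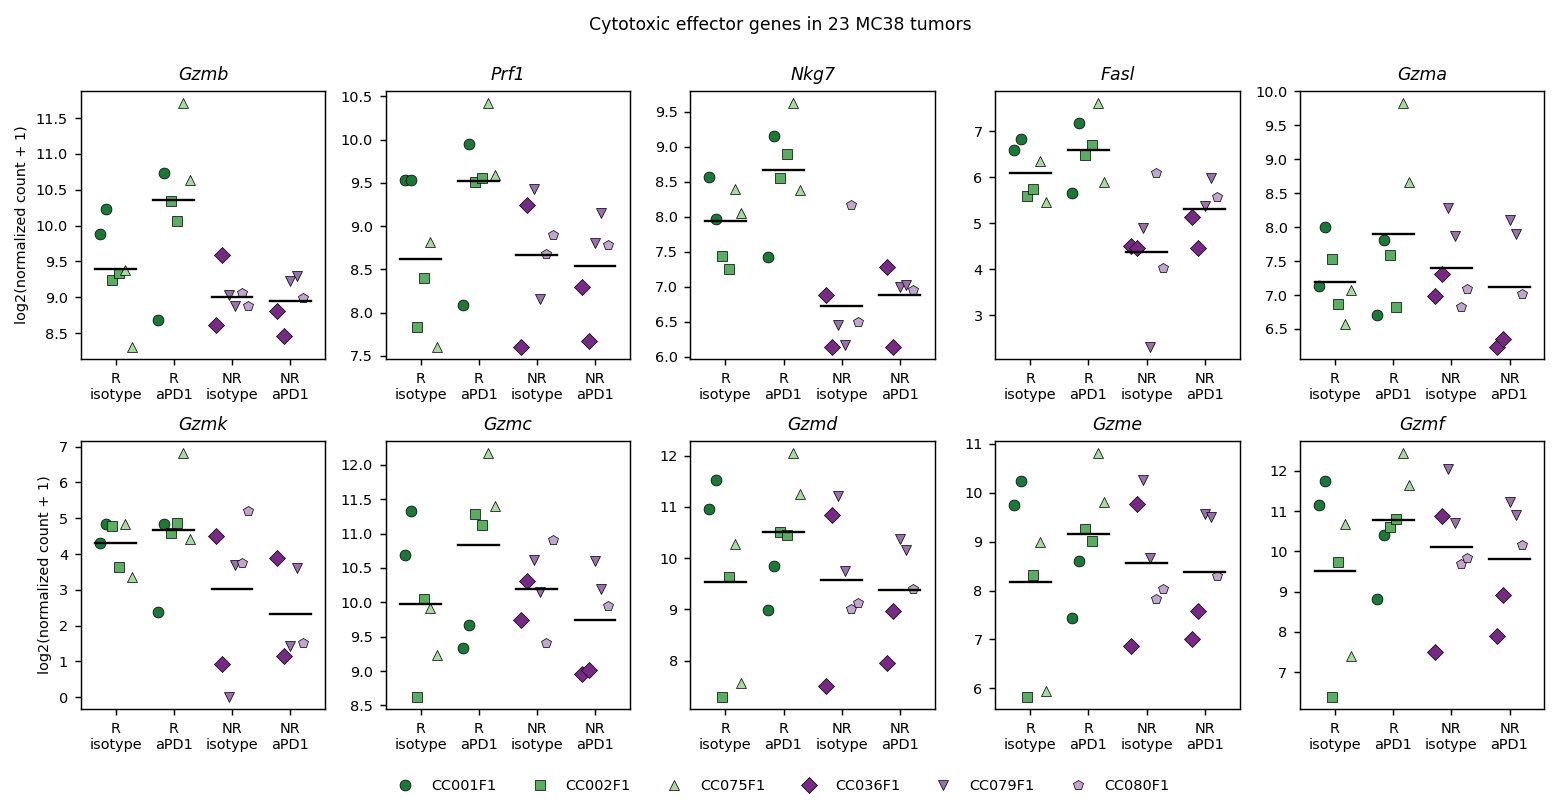
Normalized count of each gene, as log2(count + 1), in every tumor; symbols mark the host line, green for R and purple for NR lines, and black bars the mean of the group. Nkg7 in R aPD1 tumors lies above every NR aPD1 tumor, while Gzmd, Gzme and Gzmf spread widely within each group and overlap between R and NR.

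The first question was whether the killer cell genes differed between R and NR hosts. Over all tumors, 4 of the 10 genes were higher in R at a DESeq2 adjusted p under 0.05, namely Gzmb, Gzmk, Nkg7 and Fasl, and none was lower. Of all genes with an adjusted p, 7.66% were called higher in the same fit. The median log2 difference of the members was 0.63, and it was 0.00 over all genes tested. In limma, with a random effect for the line, Nkg7 and Fasl passed over all tumors (adjusted p = 0.00438 and 0.0091), and Gzmb (0.0818) and Gzmk (0.0588) did not. In that fit no member passed among aPD1 tumors, where the adjusted p was 0.081 for Nkg7, 0.126 for Fasl, 0.221 for Gzmb and 0.263 for Gzmk, or among isotype tumors. Values for each gene follow by its role.

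Gzmb ran from 315.5 to 1198 normalized counts in the R isotype tumors (median 657) and from 410.5 to 3353 in the R aPD1 tumors (median 1440.0). The NR isotype tumors had 391 to 769.9 (median 498), and the NR aPD1 tumors 448.5, 352, 596, 627 and 506. All 5 NR aPD1 tumors thus lay below 5 of the 6 R aPD1 tumors, the exception being the first CC001F1 aPD1 tumor (410.5), and the isotype groups overlapped. Over all tumors Gzmb was 2.02-fold higher in R, a log2 difference of 1.02 ± 0.28 (SE, n = 23) with a DESeq2 adjusted p of 0.00479. Within isotype tumors the difference was 0.47 ± 0.29 (adjusted p = 0.363) and within aPD1 tumors 1.63 ± 0.43 (adjusted p = 0.0042). In the 17 deep libraries, the difference over all tumors was 0.92 and did not pass (adjusted p = 0.106), while that in aPD1 tumors was 1.71 and did (adjusted p = 0.027). Among deep isotype libraries it was 0.07 (DESeq2 adjusted p = 0.969).

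Prf1, the partner of granzyme B in entering the target cell, ran from 193 to 743 normalized counts in R isotype tumors (median 393.5), from 272 to 1374 in R aPD1 tumors (median 764), and from 193 to 689 in NR isotype tumors (median 443). The NR aPD1 tumors had 314, 203, 447, 569 and 441. The isotype groups covered nearly the same range, and with aPD1 the same 5 of 6 R tumors as for Gzmb lay above every NR tumor. Prf1 did not pass in any of the 3 comparisons, with log2 differences of 0.50 ± 0.30 over all tumors (DESeq2 adjusted p = 0.292), 0.01 ± 0.42 with isotype (adjusted p = 0.993) and 1.04 ± 0.39 with aPD1 (adjusted p = 0.0751). When counts were summed per line, so that a line was 1 sample, Prf1 was called over all tumors (adjusted p = 0.00852) and with aPD1 (adjusted p = 0.00385), and in limma, with a random effect for the line, it was not (adjusted p = 0.37 and 0.268). Without the 5 tumors with muscle genes it was called with aPD1 (1.08, adjusted p = 0.00258).

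Nkg7, which cytotoxic cells need to release their granules, had the most separate groups. It ran from 152 to 378 normalized counts in R isotype tumors (median 256), from 171.5 to 788 in R aPD1 tumors (median 424) and from 69.8 to 286.5 in NR isotype tumors (median 88.2). In NR aPD1 tumors it stood at 155, 69.6, 126, 130 and 123, below all 6 R aPD1 tumors, a separation seen for 2.52% of genes averaging 5 or more normalized counts. Among isotype tumors the first CC080F1 tumor (286.5) lay within the R range and the other 5 NR tumors below it. Nkg7 was 2.79-fold higher in R over all tumors (log2 difference 1.48 ± 0.28, DESeq2 adjusted p = 1.23e-05), with 1.09 ± 0.33 in isotype tumors (adjusted p = 0.0251) and 1.90 ± 0.31 in aPD1 tumors (adjusted p = 1.88e-07). In edgeR the isotype difference did not pass (adjusted p = 0.156), and the other 2 did (adjusted p = 0.00148 and 0.0108). Without the 5 tumors with muscle genes the isotype difference of Nkg7 was 0.88 and did not pass (DESeq2 adjusted p = 0.157). In the deep isotype libraries it was 0.82 and did not pass either (DESeq2 adjusted p = 0.656).

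Fasl, the death ligand, ran from 43.0 to 114 normalized counts in R isotype tumors (median 66.4), from 49.3 to 195.5 in R aPD1 tumors (median 96.5) and from 3.97 to 67.5 in NR isotype tumors (median 21.5). The NR aPD1 tumors had 34.3, 21.2, 40.7, 62.7 and 46.8. Of the 11 NR tumors, 8 lay below every R tumor, and the other 3 came from CC079F1 with aPD1 and from CC080F1. The difference was 1.38 ± 0.29 over all tumors (2.61-fold, DESeq2 adjusted p = 0.000127), 1.37 ± 0.45 with isotype (adjusted p = 0.0431) and 1.41 ± 0.37 with aPD1 (adjusted p = 0.00406). In edgeR it passed over all tumors (adjusted p = 0.00643) and not within isotype (0.183) or within aPD1 tumors (0.0728). The isotype call of Fasl was also lost without the 3 tumors with Glycam1 (1.47, DESeq2 adjusted p = 0.0597) and without the 5 with muscle genes (1.17, adjusted p = 0.182). In the deep isotype libraries the difference of Fasl was 0.69 and did not pass (DESeq2 adjusted p = 0.624).

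Gzmk, a tryptase known from memory-like and precursor CD8 T cells, ran from 9.21 to 27.9 normalized counts in R isotype tumors and from 4.17 to 112 in R aPD1 tumors, against 0 to 35.9 in NR isotype tumors. In NR aPD1 tumors it was 13.7, 1.21, 1.70, 11.2 and 1.87. The R aPD1 tumors lay above every NR aPD1 tumor but for the first CC001F1 tumor (4.17). The log2 difference was 1.56 ± 0.57 over all tumors (DESeq2 adjusted p = 0.0442) and 2.65 ± 0.79 with aPD1 (adjusted p = 0.0149), and with isotype it was 0.62 ± 0.71, for a gene too low there to receive an adjusted p. Both calls were lost in edgeR (adjusted p = 0.118 and 0.125) and without the 3 tumors with Glycam1 (adjusted p = 0.23 and 0.131) or the 5 with muscle genes (adjusted p = 0.0621 and 0.198).

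Gzma, the other tryptase, did not follow the class. It ran from 94.6 to 255 normalized counts in R isotype tumors, from 103.5 to 909 in R aPD1 tumors and from 112 to 309 in NR isotype tumors, and the NR aPD1 tumors had 74.2, 81.1, 273, 237 and 128. The difference was 0.37 ± 0.36 over all tumors (DESeq2 adjusted p = 0.571), -0.24 ± 0.28 with isotype (adjusted p = 0.686) and 1.03 ± 0.63 with aPD1 (adjusted p = 0.383). The 909 of the first CC075F1 aPD1 tumor was 2.24 times the level in its replicate, and no other tumor passed 405.6.

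Gzmc, Gzmd, Gzme and Gzmf did not pass in any of the 3 comparisons of R with NR when no tumor was left out. Gzmf ran from 82.2 to 3456 normalized counts in R isotype tumors (median 1247), from 447 to 5567 in R aPD1 tumors (median 1677) and from 180.4 to 4198 in NR isotype tumors (median 1285), and the NR aPD1 tumors had 238, 479, 2411, 1911 and 1135. The ranges of R and NR overlapped almost wholly. Tumors of 1 line and antibody differed from each other by up to 10.5-fold for Gzmf and 10.2-fold for Gzmd, both in CC036F1 isotype tumors, and by 2.02-fold and 1.82-fold at the median of 11 pairs, against 1.27-fold for Gzmb. Gzmk, at few counts, differed by up to 24.6-fold, leaving out the pair with a 0. Over all tumors the log2 differences of R minus NR were 0.57 ± 0.37 for Gzmc (DESeq2 adjusted p = 0.326), 0.69 ± 0.49 for Gzmd (0.388), 0.35 ± 0.51 for Gzme (0.728) and 0.33 ± 0.56 for Gzmf (0.771). With aPD1 they were 1.25 ± 0.53, 1.23 ± 0.58, 0.79 ± 0.64 and 0.91 ± 0.67, and with isotype -0.04 ± 0.44, 0.21 ± 0.77, -0.04 ± 0.79 and -0.19 ± 0.85. The 95% interval for Gzmf over all tumors, from -0.76 to 1.42, does not set a tight bound on a class difference.

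**Figure D2:**
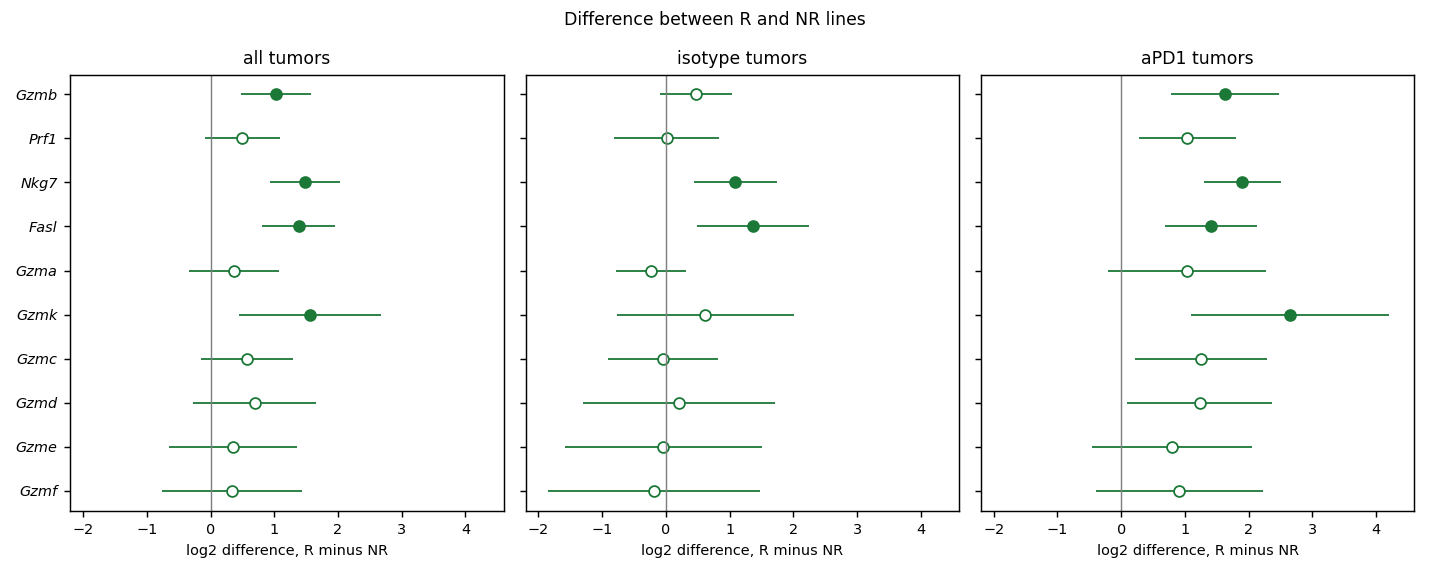
Log2 difference of R minus NR for the 10 genes over all tumors, in isotype tumors and in aPD1 tumors, with bars of 95% intervals; filled circles passed a DESeq2 adjusted p of 0.05 and open ones did not. Nkg7 and Fasl are filled in all 3 panels, Gzmb and Gzmk over all tumors and with aPD1, and the 4 cluster genes in none.

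Counted by comparison, 2 of 9 members with an adjusted p were higher in R among isotype tumors (2.29% of all genes were), Nkg7 and Fasl, and 4 of 10 among aPD1 tumors (5.94% of all genes). The median difference of the members was 0.11 with isotype and 1.24 with aPD1, against 0.00 and -0.01 over all genes tested. edgeR called none of the members among isotype tumors, and Gzmb and Nkg7 among aPD1 tumors. With isotype, the count was 0 when the first CC001F1, the first CC075F1, either CC036F1, either CC079F1 or the second CC080F1 tumor was left out, and 3 at most when another was. With aPD1 it was 3 to 6. Line means over both antibodies were higher in all 3 R lines than in all 3 NR lines for Gzmb, Gzmc, Gzmk, Prf1, Nkg7 and Fasl, 6 of the 10 genes, as they were for 12.8% of genes averaging 5 or more normalized counts. No member separated the isotype tumors of R and NR (0.42% of genes did).

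The second question was whether aPD1 changed these genes within 48 h. In R lines all 10 members had a positive estimate with aPD1, from 0.60 ± 0.57 on the log2 scale for Gzmk to 1.06 ± 0.48 for Gzmb, and none passed with DESeq2 or edgeR. In DESeq2, 5.26% of all genes tested were called there. The R lines did not all rise. In CC001F1 both aPD1 tumors lay below both isotype tumors for Gzmc, Gzmd, Gzme and Gzmf (Gzmf 447 and 1362 against 2286 and 3456). In CC002F1 and CC075F1 both aPD1 tumors lay above both isotype tumors for the same genes. At an unadjusted p under 0.05 there were 3, Gzmb (adjusted p = 0.224), Prf1 (0.97 ± 0.44, adjusted p = 0.229) and Nkg7 (0.83 ± 0.35, adjusted p = 0.184). The count changed when single tumors were left out. Without the first CC001F1 aPD1 tumor, which was the lowest R aPD1 tumor for all 10 members and had the highest muscle gene sum, 4 members were called, Gzmb, Prf1, Nkg7 and Fasl. Without the first CC001F1 isotype or the second CC075F1 aPD1 tumor, Nkg7 alone was called. The R estimates include the first CC075F1 aPD1 tumor, which was the highest of all 23 tumors for each of the 10 members. Their size without that tumor is not given here. Without all 5 tumors that had muscle gene sums of 1000 or more, a choice made after seeing the data, 3 members were called, Gzmb (1.14, DESeq2 adjusted p = 6.06e-05), Prf1 (1.07, adjusted p = 0.00191) and Nkg7 (0.84, adjusted p = 0.00941).

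In NR lines 8 of the 10 estimates were negative, from -0.10 ± 0.18 for Gzmb to -0.87 ± 1.04 for Gzmk, and Nkg7 (0.21 ± 0.33) and Fasl (0.74 ± 0.50) were positive. None passed with either tool (0.0448% of all genes did in DESeq2), and none had an unadjusted p under 0.05. Over all lines none passed either (2.79% of all genes did), with an unadjusted p under 0.05 for Nkg7 and Fasl, and Nkg7 was called without the first CC001F1 aPD1 or the first CC080F1 isotype tumor. The difference of the antibody effect, R minus NR, was positive for 9 members and largest for Gzmf (1.58 ± 1.04), and Fasl stood at -0.09 ± 0.60. It passed for none of them (0.0342% of all genes did), with unadjusted p of 0.0376 for Gzma, 0.0377 for Gzmb, 0.0409 for Prf1 and 0.0452 for Gzmc. In edgeR none passed. Without the first CC001F1 aPD1 tumor Gzmb passed, and without the 5 tumors with muscle genes it stood at 1.27 with a DESeq2 adjusted p of 0.0582.

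**Figure D3:**
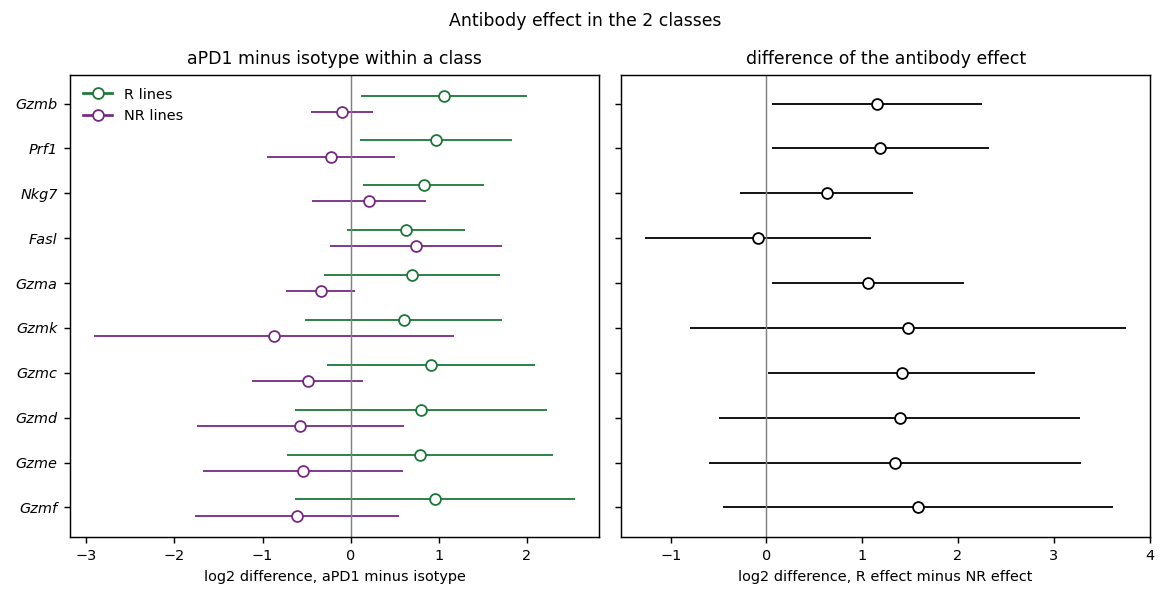
Log2 difference of aPD1 minus isotype for the 10 genes in R (green) and NR lines (purple), and how far the 2 effects lie apart, R minus NR (black), with bars of 95% intervals. The R estimates lie right of 0 for all 10 genes and the NR estimates left of 0 for 8, and every circle is open because none passed an adjusted p of 0.05.

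Within a class, lines were compared with antibody as a term. Among the R lines no member differed (1.05% of genes did), in DESeq2 or edgeR, and no member had an unadjusted p under 0.05. Among the NR lines 9.46% of genes differed, and 1 member did, Gzma (DESeq2 adjusted p = 6.25e-07, edgeR 0.00259). Gzma stood at 309, 234, 273 and 237 normalized counts in the 4 CC079F1 tumors, at 74.2 to 158 in the CC036F1 tumors and at 112 to 136 in the CC080F1 tumors, so CC079F1 lay above both other lines in every tumor. It remained called in the deep libraries (adjusted p = 0.000423). Gzmf had an adjusted p of 0.0934 in DESeq2 and 0.0277 in edgeR, with 1659 to 4198 in CC079F1. Without the second CC036F1 isotype tumor, Gzmb, Gzmd, Gzme, Gzmf and Prf1 were called as well, and without the first CC080F1 isotype tumor Gzmc was. Reads from founder haplotypes other than C57BL/6 can differ in how well they map, and the part of mapping in the line difference of Gzma was not tested.

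The members differed in how closely they followed markers of the cells that make them. Over the 23 tumors, Spearman correlations with Cd3e were 0.94 for Nkg7 and 0.87 for Fasl, 0.66 for Gzmb, 0.59 for Gzmk and 0.51 for Prf1, and 0.30, 0.18, 0.16, 0.14 and 0.03 for Gzmd, Gzmc, Gzme, Gzmf and Gzma. With Cd8a, a gene of CD8 T cells, they were 0.94 for Nkg7 and 0.04 for Gzmf. With the NK cell gene Ncr1 they ran from 0.31 for Gzme to 0.64 for Gzmc, with 0.56 for Gzmk and 0.46 for Gzma. In the 11 NR tumors the correlation with Cd8a was -0.61 for Gzmc, -0.59 for Gzmd and Gzme, -0.53 for Gzmf and -0.60 for Gzma, and in the 12 R tumors it was 0.27 to 0.43 for the same genes. For Prf1 it was -0.41 in NR and 0.62 in R tumors, and for Gzmb -0.10 and 0.55. Over the 23 tumors both stood closer to Gzmd, at 0.87 for Prf1 and 0.78 for Gzmb, than to Cd3e. These correlations describe tumors that share lines, depth and dissection, and carry no test.

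**Figure D4:**
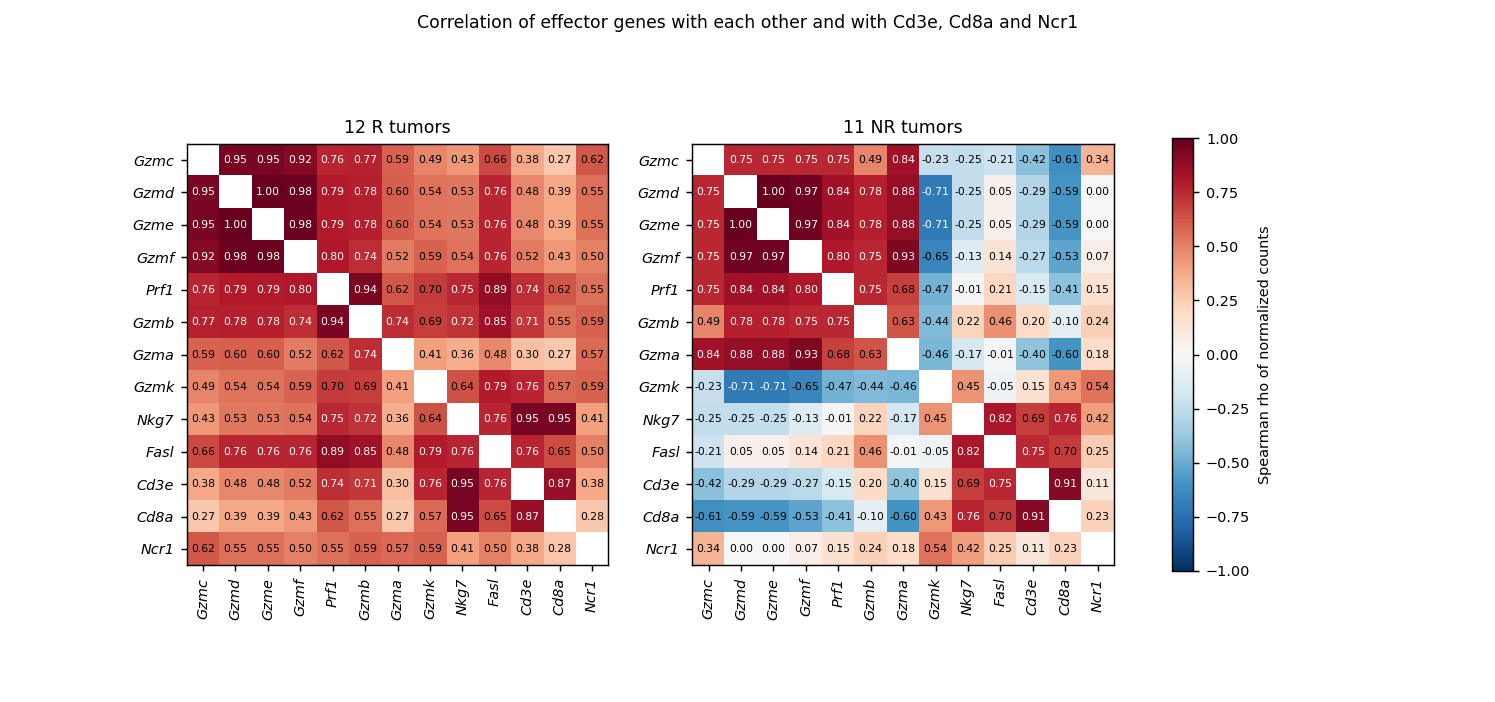
Spearman correlation of normalized counts between the 10 genes, Cd3e, Cd8a (T cells) and Ncr1 (NK cells) in the 12 R and the 11 NR tumors. Gzmc, Gzmd, Gzme and Gzmf rise and fall together in both panels, at 0.75 or more, and Nkg7 goes with Cd8a in both (0.95 and 0.76).

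The CC079F1 isotype tumors had the 2 lowest Cd3e values of all tumors, 16.5 and 3.97 normalized counts, and 55.5 and 39.3 of Cd8a, and yet 4198 and 1659 of Gzmf, 2368 and 856 of Gzmd and 1225 and 402 of Gzme. Their Nkg7 was 86.8 and 71.4 and their Fasl 28.9 and 3.97, both low, and their Ncr1 was 87.2 and 55.8, within the range of the other tumors. Conversely, the first CC002F1 isotype tumor had 158.5 of Cd3e and 82.2 of Gzmf, the lowest Gzmf of all. It is one of the 3 tumors with Glycam1.

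**Figure D5:**
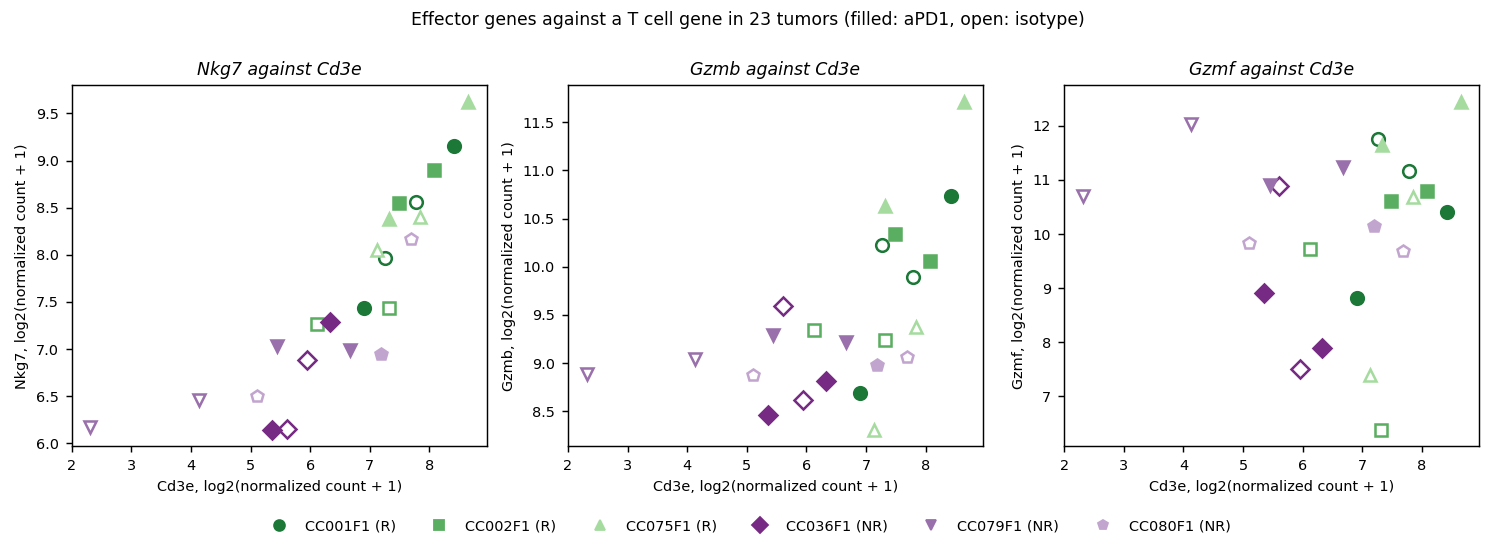
Nkg7, Gzmb and Gzmf against Cd3e, all as log2(normalized count + 1), in the 23 tumors; symbols mark the line, filled for aPD1 and open for isotype. Nkg7 climbs with Cd3e through all lines, while Gzmf is high at both ends of the Cd3e range, including the 2 CC079F1 isotype tumors at its lower end.

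Ratios of counts within a tumor do not depend on library size, and 5 of them (Gzmb, Prf1, Nkg7 and Gzmk to Cd3e, and Gzmk to Gzmb) were compared in 4 contrasts by exact two-sided permutation of tumors. None of the 20 passed after Benjamini-Hochberg adjustment. The lowest p was for Prf1 to Cd3e in isotype tumors, with a mean log2 ratio of 1.38 ± 0.84 (SD) over 6 R tumors against 3.55 ± 1.93 (SD) over 6 NR tumors, a difference of -2.16 (exact permutation p = 0.039, adjusted p = 0.329). For Gzmb to Cd3e it was 2.16 ± 0.80 in R and 3.89 ± 1.80 in NR (exact permutation p = 0.0541, adjusted p = 0.329, n = 6 each). The widest NR values again came from CC079F1, with 5.34 and 5.85 for Prf1 and 4.95 and 6.58 for Gzmb. The second of these tumors, a shallow library, had only 2 expected counts of Cd3e, so its 5.85 and 6.58 rest on few reads. With aPD1, the Gzmb ratio was 2.55 ± 0.61 in 6 R and 2.77 ± 0.77 in 5 NR tumors (exact permutation p = 0.604). Per count of Cd3e, the estimates for Prf1 and Gzmb were thus lower in R than in NR isotype tumors, and neither difference passed.

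Markers of T cells and other cells were also compared between R and NR. All 6 pan-T cell genes and both CD8 genes were higher in R over all tumors, with Cd3e at 1.47 ± 0.40 and Cd8a at 1.78 ± 0.39 (DESeq2 adjusted p = 0.0044 and 0.00018). The summed level of the 6 T cell genes was 427 to 1063 normalized counts in R isotype, 608 to 2056 in R aPD1, 179 to 779 in NR isotype and 231 to 864 in NR aPD1 tumors. Of 6 NK cell genes 2 were higher, Klrb1c, which also differed among the R lines (adjusted p = 1.42e-06), and Klre1. The sum of the 6 was 1262 to 2544 in R and 1094 to 1588 in NR tumors. Klra4 made up most of that sum, at a mean of 1424 expected counts per library against 20.9 to 101 for the others. Klra4 itself did not pass (0.16 ± 0.08, DESeq2 adjusted p = 0.139). Ncr1 did not pass over all tumors and was higher in R with aPD1 in DESeq2 (1.21 ± 0.42, adjusted p = 0.0461) and not in edgeR (adjusted p = 0.186). Of the 3 CD4 T cell, 3 gamma delta T cell and 5 mast cell genes none passed over all tumors. The leukocyte gene Ptprc was higher in R by 0.77 ± 0.16 (adjusted p = 8.42e-05), as were Adgre1 and Csf1r among 4 macrophage genes. In edgeR the calls of Klrb1c and Csf1r over all tumors were lost (adjusted p = 0.0809 and 0.0789). How far cell numbers account for the effector differences was not tested.

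The rest of the pathway was read from lists. Of 8 genes for granule processing and cargo, 2 were higher in R over all tumors, Ctsc (0.83 ± 0.16), whose product cathepsin C activates granzymes by trimming them, and Ctsw (1.01 ± 0.24), and Cd63 was lower (-0.24 ± 0.06). Of the 8 granule release genes found 3 were higher, Unc13d (0.59 ± 0.12), Rab27a (0.76 ± 0.18) and Stxbp2 (0.62 ± 0.12), whose products dock and fuse granules at the membrane. Of 4 other death ligands and cytokines 3 were higher, Ifng (1.89 ± 0.33), Tnfsf10 (0.74 ± 0.19) and Tnf (0.54 ± 0.18). Of 5 serpins that inhibit granzymes or granule proteases 2 were higher, Serpina3g (1.51 ± 0.22) and Serpinb6b (0.65 ± 0.21). Ctsc, Unc13d, Stxbp2 and Tnf are also expressed in myeloid cells, so these calls are not specific to killer cells. Which cells the transcripts of the other called genes came from was not tested. In edgeR the calls of Tnf and Serpinb6b were lost (adjusted p = 0.0762 and 0.0567).

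Among the death receptor and target cell genes Bid was higher by a small amount (0.17 ± 0.06), and it did not pass in the deep libraries (DESeq2 adjusted p = 0.203). Of 11 transcription regulators of cytotoxic cells 4 were higher, led by Tbx21 (1.25 ± 0.24), Stat4 (1.06 ± 0.20) and Runx3 (0.53 ± 0.11), and Bhlhe40 was lower (-0.35 ± 0.12). In edgeR the calls of Bid, Bhlhe40 and Hopx, the other regulator called, were lost (adjusted p = 0.0781, 0.0686 and 0.072). Gzmm, Gzmg and Gzmn, the granzymes outside the 10, did not pass, and Gzmn was nearly absent with at most 6.0 expected counts. The median difference over each list was 0.08 for processing, 0.16 for release, 0.79 for ligands and cytokines, 0.28 for inhibitors, 0.06 for target cell genes and 0.27 for regulators, beside 0.63 for the members and 0.00 over all genes.

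With aPD1 in R lines, some partners passed where the members did not. Tnf rose by 1.10 ± 0.22, Ifng by 1.50 ± 0.37 and Tnfsf10 by 0.93 ± 0.22 (DESeq2 adjusted p = 0.000247, 0.00365 and 0.00273), and so did Ctsc (0.57 ± 0.14), Unc13d (0.57 ± 0.15), Stxbp2 (0.54 ± 0.16), Srgn (0.79 ± 0.22), which encodes the proteoglycan that packs granzymes, Lamp2 (0.24 ± 0.06), Serpina3g (1.07 ± 0.28) and Serpinb9, the granzyme B inhibitor (0.31 ± 0.10). Of the 11 regulators 4 rose, led by Id2 (0.76 ± 0.15), Prdm1 (0.65 ± 0.15) and Bhlhe40 (0.41 ± 0.12). Ctsc, Unc13d, Stxbp2 and Tnf, as stated above, are also expressed in myeloid cells. Mean expected counts were 19859 for Ctsc, 8213 for Lamp2 and 3527 for Srgn, against 1727 for Gzmf, the highest member. The macrophage gene Adgre1 rose as well (0.45 ± 0.13, DESeq2 adjusted p = 0.0207), and Apoe, Lyz2 and Csf1r did not pass. Which cells these rises came from was not tested. edgeR called no gene of any kind in this comparison, with 2621 at an unadjusted p under 0.05. Of all listed genes of the pathway, only Tnf had an antibody effect that differed between R and NR (1.31 ± 0.30, DESeq2 adjusted p = 0.0297), and edgeR called none. In NR lines none of the listed pathway genes passed.

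Genes with the pattern most like the members were ranked by Spearman correlation over 23 tumors with the sum of the members' log2(normalized count + 1), among the 13159 genes averaging 50 or more normalized counts. Gzmg came first at 0.91, then Dsc2 (0.884), Dusp2 (0.807), Azi2 (0.804), Tnfrsf9 and Padi2 (0.792 each), Gpr141 (0.79), Rab10 (0.778), Atp2b4 (0.775) and Rap2c (0.769). Taken singly, Gzmd and Gzme (0.982) and Gzme and Gzmf (0.983) followed each other most closely, and Gzmd and Gzme are the genes with the most shared sequence. Gzmb was nearest to Prf1 (0.881), Nkg7 to the NK receptor gene Klrc1 (0.974), Rinl (0.952) and Ctsh (0.947), and Fasl to Klrd1 (0.914), Nbeal2 (0.909) and Klf3 (0.907). Gzma (Unc45a, 0.792) and Gzmk (Pid1, 0.807) had nearest genes that were not members.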

How the data were processed

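Per the labels and the study's methods, poly(A) RNA from whole MC38 tumors was sequenced as paired 100 bp reads. The authors mapped them with bowtie 1.2.3 to transcriptomes of the 8 founder strains (GENCODE vM23, GRCm38) and deposited expected counts per gene from gbrs, in which shared reads are split and depth is not scaled. Counts were rounded for testing. Names and coordinates came from GENCODE vM21 (26681 of 26869 identifiers matched), and promoters from RefSeq. Main tests were DESeq2 1.42.0 (Wald, or likelihood ratio among lines), with at least 5 counts summed over the tumors of a fit and a Benjamini-Hochberg adjusted p under 0.05. R against NR had antibody as a term, and antibody effects had line. The study's methods name DESeq2 with default options, and the terms were chosen here. edgeR 4.0.16 and limma 3.58.1 were alternatives, with other filters and scalings, deep libraries, tumors left out and counts summed per line. Scripts were tested on simulated data. Ratios used a pseudocount of 0.5 and exact permutation. Members and lists were chosen with earlier results of these data known. All 10 members are named, from each list up to 3 called genes per direction, or any gene of a list of at most 6, and the 10 genes most like the sum of the members and up to 3 per member. Intervals cover the spread between tumors. Library totals were 14494014 to 71868253, and Vamp7 and Tcrg-V6 of the lists were not matched. The result of 1 listed gene is not reported here.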

Additional observations from a re-analysis of the deposited data

Results flagged for a closer look

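In each group of 6 or 5 tumors, the highest or lowest normalized count of a member was compared with its nearest neighbour. Of 60 groups examined, over 10 members and 5 ratios in 4 groups each, 3 held a tumor whose gap was large against the range of the group (Dixon's criterion at the 95% level), and chance alone gives about 1 in 20. The first CC075F1 aPD1 tumor had 112 normalized counts of Gzmk, with 4.17 to 28.5 in the other R aPD1 tumors. It was also the highest of all 23 tumors for each of the 10 members. The first CC080F1 isotype tumor had 286.5 of Nkg7, with 69.8 to 117 in the other NR isotype tumors. The second CC036F1 isotype tumor had 769.9 of Gzmb, with 391 to 532 in the other NR isotype tumors. No member had an antibody effect that differed between R and NR lines at an adjusted p under 0.05.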

How the results depend on the processing

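The count of members called for R against NR over all tumors (4) was 2 in limma (line as random effect) and otherwise 3 or 4. Among isotype tumors (2) it was 0 in edgeR, in the deep libraries, with depth class as a term, with counts summed per line, in limma and without tumors with muscle genes, and 1 without tumors with Glycam1. Among aPD1 tumors (4) it was 2 in edgeR and 0 in limma. For aPD1 in R lines (0) it was 3 without tumors with muscle genes, and among the NR lines (1) it was 2 in edgeR and with depth class as a term. Leaving out 1 tumor at a time gave 3 to 4 over all tumors, 0 to 3 with isotype, 3 to 6 with aPD1, 0 to 4 for aPD1 in R lines, 0 to 1 for aPD1 over all lines and for the difference of effects, and 1 to 6 among the NR lines. No ratio passed under any alternative.

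No called difference changed sign under any alternative, and estimates that had not passed did. Over all tumors, Gzme was -0.02 and Gzmf -0.07 in the deep libraries. With isotype, Gzmc was 0.08 with depth class as a term, 0.15 without Glycam1 tumors and 0.02 without muscle tumors, Gzmd -0.85 in deep libraries, -0.10 summed per line, -0.30 in limma and -0.11 without muscle tumors, and Gzme 0.19 and Gzmf 0.06 without Glycam1 tumors. Prf1 was -0.0019 in edgeR, -0.54 in deep libraries, -0.10 summed per line, -0.21 in limma and -0.17 without muscle tumors. For aPD1 in NR lines Gzmk was 1.41 in deep libraries, 0.67 with depth class and 0.07 without Glycam1 tumors. The difference of effects was -0.08 for Gzmk and 0.76 for Fasl in deep libraries. Leaving out 1 tumor gave -0.40 to 0.15 for Gzmc, -0.27 to 0.62 for Gzmd, -0.52 to 0.42 for Gzme, -0.68 to 0.37 for Gzmf and -0.19 to 0.18 for Prf1 with isotype, -0.17 to 0.14 for Gzmb, -0.91 to 0.20 for Gzmd, -0.88 to 0.16 for Gzme, -0.98 to 0.18 for Gzmf, -0.40 to 0.13 for Prf1 and -0.01 to 0.48 for Nkg7 with aPD1 in NR lines, -0.43 to 0.23 for the difference of effects of Fasl, and -0.46 to 0.06 for the log2 ratio of Gzmb to Cd3e with aPD1. Causes were not tested.

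The replicate numbers are no pairing known from the design. Deviations of same-numbered tumors correlated at 0.34 in CC001F1, 0.10 in CC002F1, 0.13 in CC036F1, -0.18 in CC075F1 and 0.07 in CC079F1. With a replicate block the counts of called members were 3 over all tumors, 2 with isotype, 4 with aPD1, 0 for each antibody comparison and for the difference of effects, and 0 and 1 among the R and NR lines. Only the call of Gzmk over all tumors was lost (adjusted p = 0.0511).

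Over all genes, and with tumors left out singly set aside, the count called was 1209 (counts summed per line) to 2586 (replicate block) for R against NR over all tumors (DESeq2 2548, edgeR 1765), 3 (limma) to 1005 (replicate block) with isotype (DESeq2 829, edgeR 30) and 199 (limma) to 1358 with aPD1 (DESeq2 1361, edgeR 560). For aPD1 it was 0 (edgeR) to 951 (deep libraries) in R lines (DESeq2 826), 4 to 101 in NR lines (DESeq2 11) and 15 (edgeR) to 628 over all lines (DESeq2 464), and for the difference of effects 0 (edgeR) to 88 (DESeq2 9). Lines differed in 87 (edgeR) to 322 genes among R (DESeq2 200) and 902 to 1616 among NR lines (DESeq2 1602).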
